A study of Mus musculus with 6 samples.

Results

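The 8 genes described here encode proteins of regulated exocytosis: the syntaxins Stx1a and Stx11, the SNARE partners Snap25 and Vamp2, the synaptotagmins Syt1, Syt4 and Syt11, and the secretory granule chaperone 7B2, encoded by Scg5. They were chosen by function and by their FPKM in the knockout and control libraries, a contrast already known when they were picked, and all 8 were found among the 54532 gene IDs of the deposited table. Their differences between the groups are therefore given as a description, without p-values. RNA came from heart ventricles of mouse embryos at E12.5. There were 3 control libraries, with the genotype given as CTL, and 3 libraries from an LSD1 conditional knockout, with the genotype given as LSD1-KO. LSD1 is the histone demethylase encoded by Kdm1a. The labels state neither the Cre driver nor the cells in which the gene was deleted, nor the strain, nor the alleles that the controls carry. Nor do they state that replicates are separate embryos or litters, so p-values here measure only the spread between these libraries, which may be technical.

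In regulated exocytosis, a vesicle fuses with the plasma membrane when SNARE proteins of both membranes zip into a helical bundle. In neurons and endocrine cells the vesicle SNARE is VAMP2, the membrane SNAREs are syntaxin 1A and SNAP-25, and synaptotagmin 1 is the calcium sensor that triggers fusion. Other cells use related proteins for constitutive or stimulated secretion, among them syntaxin 4, SNAP-23 and VAMP3. LSD1 is a partner of CoREST, which the repressor REST brings to RE1 elements of neuronal genes in cells that are not neurons. Several genes of synaptic exocytosis are known targets of REST.

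The targeted gene was lower in the libraries labelled knockout. Kdm1a was at 30, 29.7 and 22.8 FPKM (fragments scaled to exon length and library size) in control replicates 1 to 3 and at 10.7, 11.8 and 11 in knockout replicates 1 to 3. The knockout mean was 0.405 of the control mean, and limma gave an adjusted p of 0.00274 (log2 change -1.22, SE 0.11). A two-sided exact permutation test gave p = 0.1, the smallest that 3 against 3 samples allow. The libraries held 17898945 to 20076038 reads, as recovered from the values. Cardiomyocyte markers summed to 11664 to 15105 FPKM in control and 12890 to 14253 FPKM in knockout libraries. Knockout replicate 1 stood apart in markers of neural crest and Schwann precursors: their 9 genes summed to 18.2 FPKM there, against 4.30 to 5.62 in the other 5 libraries, and Sox10 alone was at 5.24 FPKM. Knockout replicate 3 was the only library in which the Y-linked Ddx3y, Uty, Kdm5d and Eif2s3y were all at 0 FPKM, with Xist at 12.1. Knockout replicate 1 had Xist at 1.11 FPKM beside Y-linked RNA, where the controls and knockout replicate 2 had at most 0.0125. In bulk samples, fewer cells of a type and less RNA per cell cannot be told apart.

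The 8 genes fell into 3 kinds. Stx11, Scg5 and Syt11 were higher in knockout ventricles, by 2.82, 5.42 and 1.67 times. Stx1a was lower, at 0.669 of the control mean, and Vamp2 differed little, at 1.06. Syt1, Syt4 and Snap25, which belong to the synaptic and dense-core release machinery, were close to the limit of detection in both groups. A filter on low values, a mean over all libraries of 0.5 FPKM or more, kept 5 of the 8. In that fit over 14149 genes (limma on log2(FPKM + 1), Benjamini-Hochberg adjusted p under 0.05), 3 of the 5 were called higher, where 1.91% of all genes tested were, and 0 lower, where 0.466% were. Scg5, with a control mean of 0.241 FPKM, passed the filter only through the knockout group, where it is high, so the filter itself favoured its call. Since the 8 were also chosen with this contrast known, nothing is read from those shares. Counts at an unadjusted p under 0.05 are given for other genes below. Over all 14149 genes tested that count was 2274, with 1227 higher and 1047 lower.

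For 3 of the genes that differed between the groups, the sequence upstream of the start is shown here to set their base composition side by side, with every CpG in capitals. Each stretch runs from base 250 to base 51 before the RefSeq start (GRCm38.p6, 5′ to 3′ on the gene's own strand) and lies under no annotated exon. Stx11 is on the minus strand at chr10:12964310-12964509, Scg5 on the minus strand at chr2:113829142-113829341, and Stx1a on the plus strand at chr5:135023232-135023431.
Stx11: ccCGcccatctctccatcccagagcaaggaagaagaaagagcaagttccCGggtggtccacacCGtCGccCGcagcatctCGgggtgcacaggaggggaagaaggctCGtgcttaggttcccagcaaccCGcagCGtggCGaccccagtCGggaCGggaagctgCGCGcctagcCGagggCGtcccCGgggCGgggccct
Scg5: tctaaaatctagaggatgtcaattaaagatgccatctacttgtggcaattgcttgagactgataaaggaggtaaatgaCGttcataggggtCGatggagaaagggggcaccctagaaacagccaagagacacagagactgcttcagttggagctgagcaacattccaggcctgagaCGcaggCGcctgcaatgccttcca
Stx1a: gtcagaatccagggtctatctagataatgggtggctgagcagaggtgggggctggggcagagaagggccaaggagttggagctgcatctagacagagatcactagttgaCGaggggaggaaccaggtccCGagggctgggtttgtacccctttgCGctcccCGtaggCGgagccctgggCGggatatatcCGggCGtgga
The 200 bases shown held 18 CpG for Stx11, 4 for Scg5 and 8 for Stx1a, with a GC content of 68.5%, 48.5% and 60.5%. Over the whole window of 300 bases, from 250 before to 50 after the start, Stx11 had 27 CpG, more than or as many as 85.8% of the 32851 windows in the reference table. The window of Scg5 had 9 and that of Syt11 had 14, against a median of 7. The windows of the 3 higher genes thus held from 9 to 27 CpG, and that of Stx1a, the lower gene, lay between them with 19. The Syt11 window, chr3:88772550-88772849 on the minus strand, lies inside the annotated gene, which reaches 88775164. It overlaps an annotated exon, so its sequence is not shown and its counts are not of the same kind as those of Stx11, Scg5 and Stx1a. CpG was chosen for display after the sequences were seen. The GC box GGGCGG, searched on both strands, was found 3 times in the windows of Stx11 and Stx1a, 2 times in that of Syt11, 1 time in that of Scg5 and 1 and 0 times in those of Syt1; it holds a CpG itself, and it occurred at least 1 time in 35.7% of all windows. The RE1 consensus, the degenerate motif that REST binds, was searched on both strands and found in 0 of the 6 windows available for 5 of the genes (Stx1a, Stx11, Syt1, Syt11 and Scg5), and in 0.0639% of all windows. These letters are not in this short window, which is all the search covered; sequence farther out and introns were not searched. In spliced transcripts the consensus was found for Syt4 alone of the 8 genes, and for 0.398% of all gene names.

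Syntaxins are the plasma membrane SNAREs that receive the vesicle. Stx11 encodes an atypical syntaxin without a transmembrane segment, known for its part in granule release by cytotoxic lymphocytes. It lies on chromosome 10 from 12938209 to 12964298 (GRCm38, minus strand). Stx11 was at 1.34, 1.26 and 1.26 FPKM in control replicates 1 to 3 and at 3.67, 3.66 and 3.53 FPKM in knockout replicates 1 to 3. The groups were far apart and each was tight, with the highest control library well under the lowest knockout library. From 1.28 ± 0.0482 to 3.62 ± 0.0803 FPKM (SD, n = 3 each), the mean was 2.82 times as high in the knockout (log2 change 1.02, SE 0.07). These values rest on 104, 94 and 102 reads in control and 279, 299 and 265 reads in knockout libraries. Stx11 is a gene of blood cells elsewhere, so their markers are given beside it. The 9 macrophage and leukocyte markers summed to 60.8 to 68.8 FPKM in control and 67.5 to 77.8 FPKM in knockout libraries, and 0 of the 8 tested were called by limma (1 at an unadjusted p under 0.05). The 7 megakaryocyte and platelet markers summed to 30.3 to 98.7 and 28.3 to 65.5 FPKM, with Gp1bb at 0 in all libraries. Both sums overlapped between the groups. Of the macrophage markers, Fcer1g was wholly higher in knockout libraries, at 16.9 to 17.9 against 15.4 to 16 FPKM. Tyrobp had means of 16.2 in control and 20.1 FPKM in knockout, with overlapping ranges (14.9 to 18.4 and 16.6 to 22.2). Mrc1 and Adgre1 had lower knockout means, at 4.77 and 4.26 FPKM and at 5.23 and 5.06 FPKM in control and knockout. The means of all others of that list were higher in the knockout, and their ranges overlapped. The part of blood cells in the Stx11 values was not tested.

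Stx1a, the neuronal syntaxin, differed in the other direction. It lies on chromosome 5 from 135023482 to 135051100 (plus strand) and was at 4.86, 4.13 and 3.73 FPKM in control and 3.28, 2.45 and 2.77 FPKM in knockout replicates 1 to 3. Each knockout library lay under each control library, but the gap between the groups was smaller than the control SD. The means were 4.24 ± 0.571 and 2.84 ± 0.416 FPKM (SD, n = 3 each), with a log2 change of -0.45 (SE 0.11), and the gene was not called in the fit over all genes. With Stx1a included, 4 of the 5 tested genes had groups that did not overlap, against 21.4% of all genes tested. The genes were chosen with this contrast known, so nothing is read from that share either. The ratio of Stx1a to Stx11 turned over between the groups. It was 3.63, 3.29 and 2.97 in control and 0.894, 0.671 and 0.786 in knockout replicates 1 to 3, so that Stx1a was the more abundant of the pair in each control library and Stx11 in each knockout library.

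**Figure D1:**
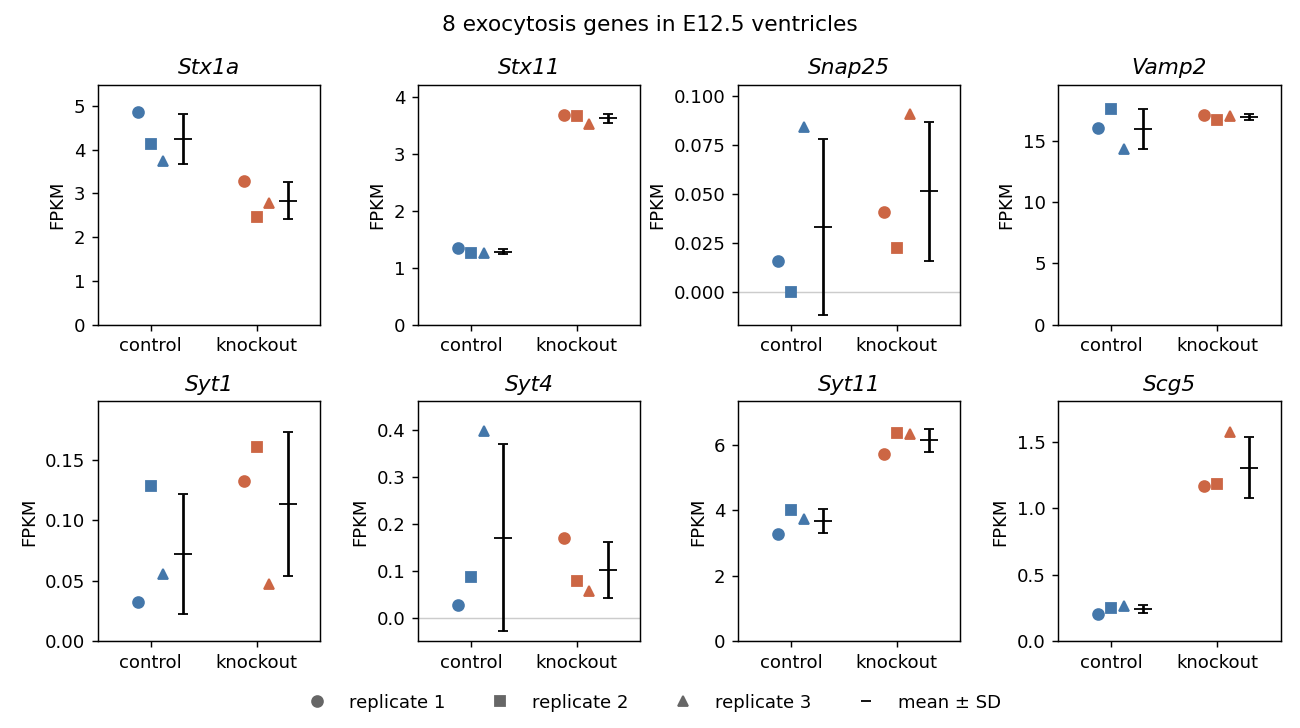
FPKM of the 8 genes in each library, with 1 panel per gene and its own linear axis; symbols are replicates and the bar is the mean with its SD (n = 3). Stx11, Syt11 and Scg5 lie higher and Stx1a lower in all 3 knockout libraries, while Vamp2, Syt1, Syt4 and Snap25 overlap between the groups.

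Both genes are minor syntaxins of the ventricle. Among 6 plasma membrane syntaxins (Stx1a, Stx2, Stx3, Stx4a, Stx11 and Stx19), the summed level was 33.7 ± 1.44 FPKM in control and 34.1 ± 1.8 FPKM in knockout (SD, n = 3 each). Stx4a, the widely expressed syntaxin 4, made up 60.8% ± 0.631 of it in control and 57.8% ± 1.06 in knockout (SD, n = 3 each). The share of Stx11 was 3.8% ± 0.123 in control and 10.6% ± 0.467 in knockout (SD, n = 3 each). That of Stx1a was 13.9%, 12.1% and 11.6% in control and 9.06%, 7.42% and 8.38% in knockout replicates 1 to 3. Stx11 thereby moved from the fifth place in the family to the third, and Stx1a from the third to the fourth. The summed level differed by less than the spread between libraries, so a small change of the sum could not be seen. The shares of Stx11 and Stx1a did differ between the groups.

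**Figure D2:**
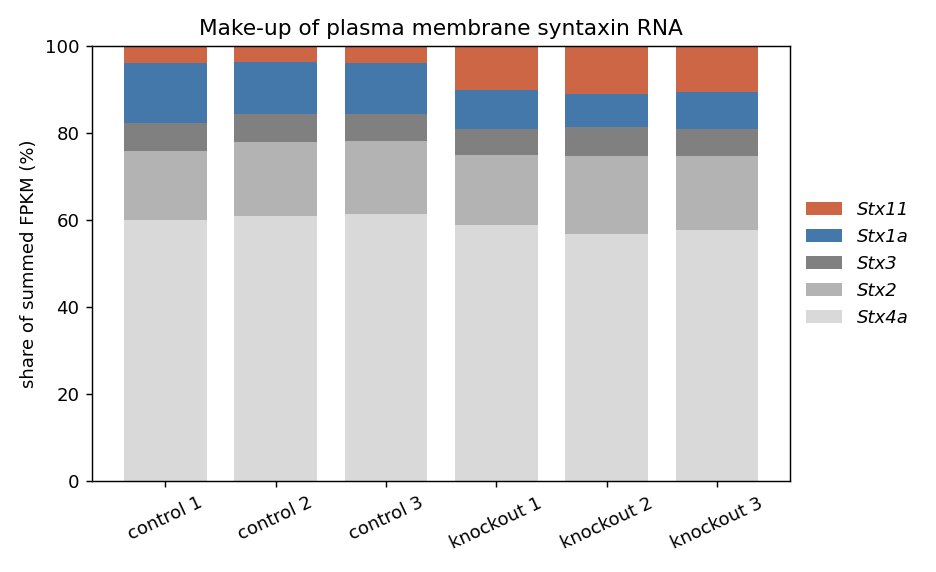
Share of the summed FPKM of 6 plasma membrane syntaxins taken by each gene, 1 bar per library (Stx19, at or near 0, is not drawn). The Stx11 segment is wider and the Stx1a segment narrower in the 3 knockout bars, and Stx4a takes over 50% in each.

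Of 11 other listed syntaxins that were tested, 0 were called in either direction by limma (0 at an unadjusted p under 0.05, and 0 by limma voom on the recovered reads). Their median log2 change was -0.0018, against -0.01 over all genes tested. The most abundant was Stx12, an endosomal syntaxin, at 35.4 ± 0.634 and 34.8 ± 0.244 FPKM (SD, n = 3 each). Stx4a was at 20.5 ± 0.706 and 19.7 ± 1.38 FPKM (log2 change -0.05, SE 0.07, limma adjusted p = 0.757). Stx6, a syntaxin of the trans-Golgi network, was at 5.6 ± 0.167 and 6.01 ± 0.634 FPKM (log2 change 0.08, SE 0.08, limma adjusted p = 0.679).

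Vamp2, the vesicle SNARE of neurons and endocrine cells, was the most abundant of the 8 genes in both groups. It lies on chromosome 11 from 69088490 to 69092384 (plus strand). Its level was 16, 17.6 and 14.3 FPKM in control and 17.1, 16.7 and 17 FPKM in knockout replicates 1 to 3. The knockout libraries lay inside the control range. The log2 change was 0.08 (SE 0.08). Vamp2 was 11.5% ± 1.73 of the summed level of 7 VAMP genes in control and 12.1% ± 0.11 in knockout (SD, n = 3 each), behind Vamp3, Vamp8 and Vamp7 in both groups.

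Snap25, the partner of syntaxin 1A and VAMP2, was barely detected. The gene, on chromosome 2 from 136713453 to 136782428 (plus strand), had 2, 0 and 11 reads in control and 5, 3 and 11 reads in knockout replicates 1 to 3, or at most 0.0839 and 0.0907 FPKM. The groups overlapped, and the 0 in control replicate 2 allows up to 3 reads. The summed reads, 13 and 19, had exact 95% Poisson intervals of 6.92 to 22.2 and 11.4 to 29.7, which cover counting error only. A difference was not detectable at this depth. Snap25 was 0.0506% of the summed SNAP-25 family level in control and 0.0681% in knockout. Snap47 and Snap23 made up most of the rest, with Snap47 at 54.8% and 54.7%.

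Of the 10 tested relatives of SNAP-25 and VAMP2, 0 were called in either direction by limma (2 at an unadjusted p under 0.05, 0 by limma voom). Their median log2 change was 0.08. Snap23, the SNAP-25 homologue of most tissues, was at 18.5 ± 0.754 and 21.1 ± 0.769 FPKM (log2 change 0.18, SE 0.06, limma adjusted p = 0.219). Vamp5, a VAMP of muscle, was at 9.69 ± 1.93 and 12.2 ± 0.677 FPKM (limma adjusted p = 0.264); it was called higher without control replicate 3 (limma adjusted p = 0.0481). Vamp3, the most abundant, was at 59 ± 3.69 and 54 ± 0.827 FPKM (SD, n = 3 each).

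Synaptotagmins are vesicle proteins with paired C2 domains. Several of them, synaptotagmin 1 included, bind calcium. Synaptotagmins 4 and 11 carry a substitution in a C2 domain that weakens calcium binding. Syt11 lies on chromosome 3 from 88744700 to 88775164 (minus strand). It was at 3.29, 4.02 and 3.72 FPKM in control and 5.71, 6.36 and 6.33 FPKM in knockout replicates 1 to 3. The lowest knockout library was above the highest control library. The means were 3.68 ± 0.366 and 6.13 ± 0.365 FPKM (SD, n = 3 each), and the log2 change was 0.61 (SE 0.08). The call in the fit over all genes was lost without knockout replicate 2 and without knockout replicate 3, where the log2 change was 0.59 each time. Syt11 was the leading synaptotagmin of the ventricle in every library. It made up 55.6% ± 3.82 of the summed level of Syt1 to Syt17 in control and 60.6% ± 3.59 in knockout (SD, n = 3 each), while that sum went from 6.63 ± 0.719 to 10.1 ± 0.6 FPKM.

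Syt1 and Syt4 were found at trace levels. Syt1, the calcium sensor of fast synaptic release, lies on chromosome 10 from 108497650 to 109010982 (minus strand). It had 5, 19 and 9 reads in control and 20, 26 and 7 reads in knockout replicates 1 to 3, at 0.0325 to 0.128 and 0.047 to 0.161 FPKM. The ranges overlapped. Syt11 was 31.4 to 101 times as abundant as Syt1 in the control and 39.6 to 135 times in the knockout libraries. Syt4, which is on chromosome 18, had 2, 6 and 30 reads in control and 12, 6 and 4 reads in knockout replicates 1 to 3. Control replicate 3 had the most Syt4 reads, and the other 5 libraries had at most 12. For Syt4, 14.5% of exon bases lie under the exons of another gene, and the libraries do not mark strand.

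Of 26 listed synaptotagmins and related C2 proteins outside the 8 genes, 8 passed the filter, and 0 of those were called in either direction by limma (2 at an unadjusted p under 0.05, 0 by voom). Their median log2 change was 0.13. Sytl4, a Rab27 effector also called granuphilin, was at 1.54 ± 0.119 and 2.11 ± 0.238 FPKM (log2 change 0.29, SE 0.09, limma adjusted p = 0.179). Doc2g, a C2 protein, was the most abundant of that list, at 13.6 ± 0.935 and 11 ± 2.14 FPKM (limma adjusted p = 0.289), although exons of other genes cover 63.5% of it.

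Scg5 encodes 7B2, a granule protein that escorts prohormone convertase 2 through the secretory pathway and holds it inactive. It lies on chromosome 2 from 113776362 to 113829121 (minus strand). It was at 0.207, 0.251 and 0.264 FPKM in control and 1.16, 1.18 and 1.57 FPKM in knockout replicates 1 to 3. All 3 knockout libraries were well above the controls, with knockout replicate 3 the highest. The means were 0.241 ± 0.0298 and 1.31 ± 0.229 FPKM (SD, n = 3 each), the largest ratio of the 8 genes, at 5.42. The log2 change of 0.89 (SE 0.11) understates that ratio because 1 is added to low values; with 0.1 added it was 2.04. The control level rests on few reads, 6, 7 and 8, against 33, 36 and 44 in knockout libraries. The control sum of 21 reads had an exact 95% Poisson interval of 13 to 32.1, and the knockout sum of 113 reads one of 93.1 to 136. Pcsk2, the convertase that 7B2 serves, had 0 reads in 5 libraries and 2 in knockout replicate 3. The 2 RNAs were therefore not found together at a level that could be compared.

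Of 15 listed granins, convertases and granule enzymes other than Scg5, 6 were tested; 1 was called higher by limma and 0 lower (3 higher and 0 lower at an unadjusted p under 0.05). Voom called the same gene higher and 0 of the 6 lower. The called gene was Pcsk6, which encodes the convertase PACE4, a protease that activates growth factor precursors. Pcsk6 was at 1.48, 1.47 and 1.99 FPKM in control and 2.92, 4.09 and 4.27 FPKM in knockout replicates 1 to 3. Every knockout library was above every control library, though knockout replicate 1 was lower than the other knockout libraries. It rose from 1.65 ± 0.294 to 3.76 ± 0.733 FPKM (SD, n = 3 each; log2 change 0.84, SE 0.14, limma adjusted p = 0.0242). Its call was lost without control replicate 1, control replicate 2, knockout replicate 2 or knockout replicate 3, with adjusted p between 0.0247 and 0.0972 over the 6 fits. Cpe, the carboxypeptidase of granule hormones, was the most abundant of the list, at 56.3 ± 4.43 and 67.5 ± 7.26 FPKM (SD, n = 3 each; limma adjusted p = 0.257).

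The genes that assemble SNAREs and prime vesicles had 0 of 19 tested members called by limma (3 at an unadjusted p under 0.05, 0 by voom), and a median log2 change of 0.02. Rims1, an active zone scaffold, was at 0.407 ± 0.032 and 0.717 ± 0.0961 FPKM (limma adjusted p = 0.229). Cplx2, a complexin, was at 5 ± 0.438 and 4.26 ± 0.17 FPKM (limma adjusted p = 0.302), and Napa, alpha-SNAP, the most abundant, at 33.3 ± 3.26 and 32.8 ± 0.474 FPKM (SD, n = 3 each). Of 4 tested vesicle membrane proteins 0 were called (1 at an unadjusted p under 0.05, 0 by voom). Sv2a was at 4.96 ± 0.0509 and 5.61 ± 0.18 FPKM, Slc17a7, a vesicular glutamate transporter, at 0.701 ± 0.399 and 1.25 ± 0.468 FPKM, and Dnajc5 at 23.9 ± 0.914 and 23.2 ± 1.33 FPKM (SD, n = 3 each). Over the 6 lists, 111 genes were in the table and 58 were tested. Of these 1, Pcsk6, was called higher and 0 lower by limma, or 1.72% higher, against 1.91% of all genes tested. At an unadjusted p under 0.05, 9 of the 58 were higher and 2 lower, where 1227 and 1047 of all 14149 genes tested were. Voom called Pcsk6 higher and 0 lower. The median log2 change of the 58 was 0.04. The knockout libraries lay wholly above the controls for 15 of them and wholly below for 2, against 11% and 10.4% of all genes tested. The 15 include Syt7 and Rims1, whose control means of 0.413 and 0.407 FPKM were under the filter and which passed it only through the knockout group, so the filter favours the count above.

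**Figure D3:**
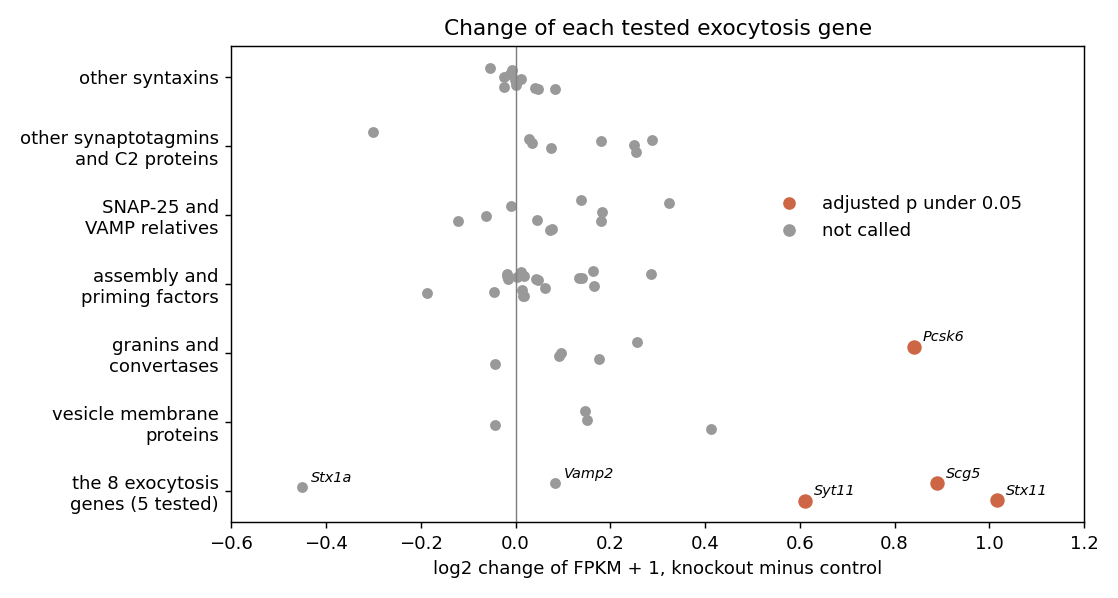
Log2 change of FPKM + 1 (knockout minus control) of each tested gene in the 6 lists and of the 5 tested genes of the 8, 1 point per gene, with points spread vertically at random within a row. Pcsk6 is the called gene of the lists, and the other list genes lie between -0.30 and 0.41.

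The order of the 8 genes by level, per exon length, differed between the groups in its middle. In control ventricles it was Vamp2, Stx1a, Syt11, Stx11, Scg5, Syt4, Syt1 and Snap25. The ranges of Stx1a and Syt11 overlapped there, as did those of Scg5 and Syt4, of Syt4 and Syt1, and of Syt1 and Snap25. In knockout ventricles the order was Vamp2, Syt11, Stx11, Stx1a, Scg5, Syt1, Syt4 and Snap25, and only the last 3 overlapped with their neighbours in the order. Scg5 lay wholly above Syt1 and Snap25 in both groups; in control libraries it overlapped Syt4, whose highest value was the 0.398 FPKM of control replicate 3.

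Knockout replicate 1, the library with the crest markers, had the highest Stx11 and Stx1a and the lowest Scg5 and Syt11 of the 3 knockout libraries, with Scg5 close to that of knockout replicate 2 (33 and 36 reads). Without that library the log2 change was 1.01 for Stx11, 0.93 for Scg5 and 0.65 for Syt11, as large as or close to the values with all 6. For Stx1a it was -0.53. Neuron markers were low throughout: their 13 genes summed to 4.74 to 5.90 FPKM in control and 5.48 to 7.17 FPKM in knockout libraries, of which Tubb3 made up 1.41 to 2.93 FPKM. Chat was at no more than 0.011 FPKM and Rbfox3 at no more than 0.0386 FPKM in any library, while Nefl reached 1.47 and Prph 0.868 FPKM. Elavl3 was wholly higher in knockout libraries, at 0.169 to 0.366 against 0.055 to 0.131 FPKM. Dbh was wholly lower there, at 0.0191 to 0.125 against 0.161 to 0.376 FPKM. The other neuron markers overlapped between the groups. The part of neurons in the values of the 8 genes was not tested. Of the 60 marker genes of 7 cell types, 44 were tested and 0 were called by limma (5 at an unadjusted p under 0.05, 0 by voom). The 44 held only 3 of the 13 neuron markers and 5 of the 9 markers of neural crest and Schwann precursors. Without knockout replicate 3 the log2 change was 1.03 for Stx11, 0.81 for Scg5 and 0.59 for Syt11. Rest itself was at 6.52 ± 1.07 and 6.69 ± 0.476 FPKM and Rcor1, a CoREST gene, at 8.43 ± 0.243 and 9.57 ± 0.567 FPKM (SD, n = 3 each; limma adjusted p = 0.896 and 0.289).

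**Figure D4:**
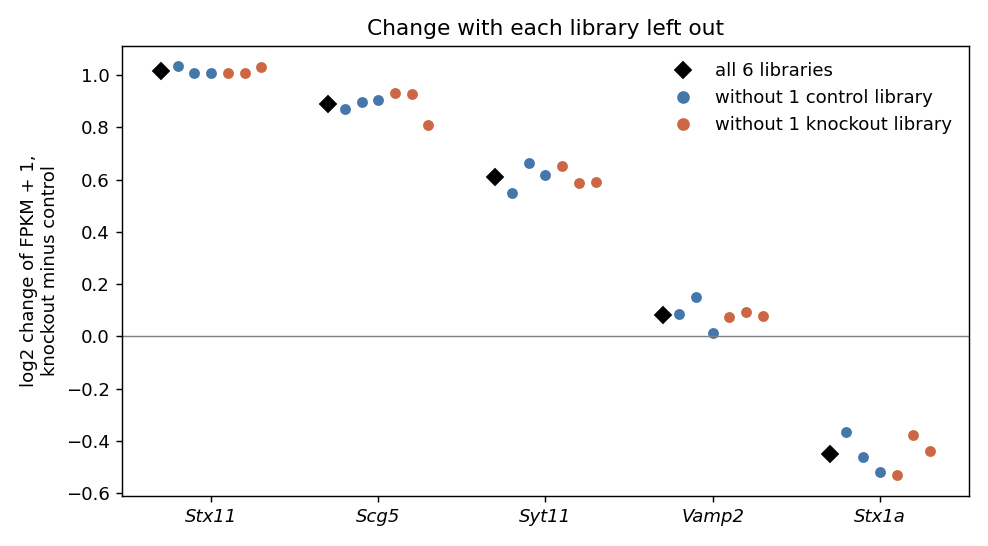
Log2 change of FPKM + 1 (knockout minus control) of the 5 tested genes with all 6 libraries and with each library left out in turn. Stx11 stays between 1.01 and 1.03, Scg5 between 0.81 and 0.93, Syt11 between 0.55 and 0.66, Vamp2 between 0.01 and 0.15 and Stx1a between -0.53 and -0.37.

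The genes that flank the 8 on the chromosome were compared in the same fit. They are the nearest that passed the filter, and they lay 0.052 to 1585 kb away. Of the 16 nearest tested genes, 1 on each side of each gene, 1 was called higher (6.25%, against 1.91% of all genes tested) and 0 lower by limma (3 and 0 at an unadjusted p under 0.05, where 1227 and 1047 of all 14149 were; 0 and 0 by voom), and their median log2 change was 0.01. The called gene was Pawr, an apoptosis regulator 83.4 kb from Syt1, which rose from 18.4 ± 0.429 to 22.9 ± 0.409 FPKM (SD, n = 3 each; log2 change 0.30, SE 0.06, limma adjusted p = 0.0402); with a library left out it was called in 0 of 6 fits. On either side of Stx11, B230208H11Rik was at 0.311 ± 0.24 and 1.13 ± 0.438 FPKM (limma adjusted p = 0.131) and Sf3b5 at 35.3 ± 1.38 and 36.9 ± 2.07 FPKM (limma adjusted p = 0.702). B230208H11Rik was wholly higher in knockout libraries and passed the filter only through that group. Beside Scg5, Arhgap11a, which lies 2.37 kb away, was at 10.1 ± 0.579 and 8.95 ± 0.386 FPKM (log2 change -0.16, limma adjusted p = 0.318). Beside Syt11, Rit1 was at 12.1 ± 0.879 and 11.6 ± 0.528 FPKM (limma adjusted p = 0.764). On its other side, 0.052 kb from Syt11, 5830417I10Rik was at 1.89 ± 0.115 and 1.82 ± 0.223 FPKM (limma adjusted p = 0.87). Exons of other genes cover 46.8% of the exon bases of 5830417I10Rik, and the libraries do not mark strand. Beside Stx1a, Bud23 was at 13.4 ± 0.96 and 13.5 ± 0.111 FPKM (limma adjusted p = 0.96). On the other side of Stx1a, Abhd11os was at 1.34 ± 0.836 and 2.24 ± 0.11 FPKM (SD, n = 3 each, limma adjusted p = 0.293).

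The pattern over the 6 libraries was also compared with that of the other tested genes, predicted models left out, as a description without a test, since the points share their libraries and 2 genotypes. Closest to Stx11 by Pearson's r of log2(FPKM + 1) were Chst12 (0.998), Nrsn2 (0.998) and Meioc (0.997), and closest to Scg5 were Scrn1 (0.997), Plbd1 (0.996) and Fam129a (0.994). All 6 were called higher in the knockout by limma. Closest to Syt11 were Fuca2, Idnk and Rasa3 (0.993 to 0.995), of which Fuca2 was called higher. Closest to Stx1a were Ghdc, Proser2 and Med30 (0.993 to 0.997), and closest to Vamp2 were Ubqln2, Rab14 and Nelfcd (0.986 to 0.991), of which 0 were called.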

How the data were processed

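RNA sequencing of E12.5 mouse heart ventricles was used in 3 control and 3 LSD1 conditional knockout libraries, grouped by the sample descriptions. Per the labels' protocols, TRIzol was used for extraction and the NEBNext Ultra RNA kit, an unstranded method, for the libraries. The tools HISAT2 2.0.5, fastp, CASAVA and featureCounts 1.5.0-p3 and the build mm10 are listed without roles in the submitters' processing notes. Which annotation release and counting options they used is not stated there. The authors deposited FPKM values for 54532 Ensembl gene IDs, of which 54495 were matched to GENCODE M21 (GRCm38, which mm10 denotes). Where IDs shared a symbol, the one with the highest mean kept it. Multiplied by exon length, the deposited values fell on steps of 1 read: 98.1% to 98.5% of values below 30 reads were whole to a tolerance of 0.02. In a gene of 1 kb, 3 reads stood at 0.155 to 0.169 FPKM.

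Filtering at a mean of 0.5 FPKM left 14149 genes, which were tested with limma 3.58.1 in R 4.3.3 on log2(FPKM + 1), with a mean-variance trend, genotype as the only term, two-sided, and Benjamini-Hochberg adjustment; such fold changes understate the change of low genes. The fit was tested on simulated data. Alternatives were a pseudocount of 0.1, no filter on low values, a mean of at least 2 FPKM, TPM, quantile normalization, a replicate block, leaving out each library, and, added after seeing the data, limma voom on recovered reads (at least 30 reads per gene over the 6 libraries) and a search of transcripts for the RE1 consensus. The 8 genes and all lists were chosen with earlier results of these data known. Named genes were the 8, Kdm1a, of each list up to 4 called genes or, with none called, the 2 of lowest p, plus the most abundant one, the nearest tested genes, and the 3 most alike; not all are printed. Promoter windows are from RefSeq (GRCm38.p6) and matched 5 of the 8 genes by symbol. Snap25, Vamp2 and Syt4 were not matched there, nor Stx10 of the lists in the FPKM table. Some listed genes are not reported here and were left out of the lists and counts after the data were seen. A planned search for RE1 farther from the genes was not run, since no genome sequence was used here. Figures were made with matplotlib 3.10.9.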

Additional observations from a re-analysis of the deposited data

How the results depend on the processing

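Kdm1a stayed lower under all 13 alternatives (log2 change -1.35 to -1.16 with a library left out, adjusted p 0.00234 to 0.019). Of the 8 genes, Stx11 was called higher under all 13 alternatives and Scg5 under the 12 that tested it (at a mean of at least 2 FPKM it was filtered out, leaving 2 of the 8 called), Syt11 under all but 3 (no filter on low values, without knockout replicate 2, without knockout replicate 3), and Stx1a and Vamp2 under none; no direction changed. The count of the 8 called higher was 2 to 3 with a library left out. These fits reuse the libraries by which the 8 were chosen, so their calls are a description only. Scg5 passed the filter of 0.5 FPKM only through the knockout group. Without a filter on low values, 110 genes were called higher and 12 lower over the whole table, with 0 genes of the exocytosis lists and 0 flanking genes among them (Pcsk6 adjusted p = 0.0968). After rescaling to TPM 40 genes were lower and 369 higher. Limma voom on recovered reads called 438 higher and 104 lower, 3 list genes higher (Pcsk6 and, from below the filter, Syt16 and Pcsk1n) and 0 flanking genes. Syt16 passed the minimum number of reads for voom only through the knockout group. With a library left out, 111 to 273 genes were higher and 23 to 108 lower, 0 to 2 list genes were higher, and 0 to 1 flanking genes; the cause was not tested. Without control replicate 1, control replicate 2, knockout replicate 2 or knockout replicate 3, 0 list genes were called by limma, and without control replicate 3 Vamp5 was called beside Pcsk6. Leaving out any library but control replicate 3 took the higher genes to 157 or fewer. The flanking gene Pawr was called in none of those 6 fits, and Abhd11os in 1, without control replicate 3. The RE1 consensus was also searched with 1 mismatch allowed, but only at positions that the motif fixes to 1 base, not at its degenerate positions. In that search it was found in 0 windows of these genes, where 0.813% of all windows hold it. Without a mismatch it was found in the transcripts of 1 gene, Syt4.

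The replicate block gave 1 list gene called higher, Pcsk6, and the same 3 of the 8 genes. Deviations from the group means of same-numbered control and knockout libraries correlated at -0.0021, 0.14 and 0.164. Those of differently numbered libraries correlated at -0.189 to 0.0798. With 3 libraries per group, these values cannot tell whether the numbers pair the samples. Depth limits Snap25, Syt1 and Syt4, for which no difference was detectable.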

Other observations

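Several exocytosis genes under the filter on low values had few but uneven reads. They were chosen after their values were seen, and the values are given without explanation. Pcsk1n encodes proSAAS, a granule protein that inhibits convertase 1 as 7B2 does convertase 2. It had 4, 5 and 9 reads in control and 24, 24 and 30 reads in knockout replicates 1 to 3, or 0.147 ± 0.0591 and 0.645 ± 0.107 FPKM (SD, n = 3 each). Limma voom on the recovered reads gave it an adjusted p of 0.0315, and limma without a filter 0.0548. The gene is X-linked, and the library without Y-linked RNA, knockout replicate 3, was the highest. Syt16, a synaptotagmin relative, had 4, 0 and 3 reads in control and 26, 40 and 42 in knockout replicates 1 to 3 (voom adjusted p = 0.00836, limma without a filter 0.0737). It passed the voom minimum of 30 reads only through the knockout group (7 reads in control and 108 in knockout). That filter thus favoured its call by voom. Cplx1, a complexin that clamps assembled SNAREs, had fewer reads in the knockout libraries, with 17, 20 and 17 reads in control and 2, 5 and 5 in knockout replicates 1 to 3. Its adjusted p was 0.0556 by voom and 0.0548 by limma without a filter, so it was not called.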
